A study of Mus musculus with 10 samples.

Results

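The enzymes of glycolysis and of glycogen turnover, together with the glucose transporters that feed them, were followed as 34 genes of the 23417 listed, chosen by name from the textbook pathway so that muscle isozymes could be set beside their ubiquitous or tissue-restricted counterparts. The cells were C2C12, an immortalised mouse myoblast line that fuses into myotubes when serum is reduced. The 10 RNA-seq libraries came from wildtype cells and cells with Huwe1 shRNA in growth medium (D0), from the same 2 genotypes after 6 days in differentiation medium (D6), from myotubes at 8 days with non-targeting RNA or Huwe1 shRNA (D8), and from D6 cells carrying USP10 cDNA driven by the EF1a promoter. Huwe1 is a ubiquitin ligase and USP10 a deubiquitinase, and the study asked how this pair affects muscle differentiation. Each knockdown group held 2 libraries made with different hairpins, while every other group held 1. Lentivirus was given to myoblasts for D0 and D6 and to cells already differentiating for D8, with puromycin selection, and the USP10 cells were a stable line. The hairpins that the labels give for D0 and D6 differ from those listed in the methods, which are the ones on the D8 labels. The D8 control is labelled non-targeting RNA, but the header of its column calls it wildtype.

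Glycolysis splits glucose into pyruvate, and glycogen is the branched glucose store from which muscle draws during contraction. Several steps are catalysed by isozymes from different genes, and the switch from the forms used in dividing cells to muscle forms such as Pgam2, Eno3 and Pygm is a classical feature of myoblast differentiation. Slc2a4 encodes the insulin-regulated transporter of muscle and fat, whereas Slc2a1 encodes the transporter found in most cells.

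Expression was given as FPKM, that is, fragments scaled by the length of the transcript and the depth of the library, with 1 value per condition in each of 4 tables (Huwe1 knockdown at D0, D6 and D8, and USP10 overexpression at D6). Both knockdown libraries were pooled in 1 column, so no difference described here had a replicate check, and no test or error could be given. The tables were normalized separately, so ratios were formed within a table and levels set across tables are descriptions. The steps between the lowest FPKM values put the single-library columns at 21800000 fragments for D0 control cells, 29900000 at D6, 18000000 at D8, 27500000 for USP10 and 7780000 for the column USP10 was compared with. Huwe1 itself was listed at 38.3 FPKM in control and 15.2 in knockdown at D0, 35.1 and 21.9 at D6, and 55.4 and 33.0 at D8. Usp10 was listed at 10.3 FPKM in the control and 38.3 in the USP10 library, and in the knockdown tables at 68.5 FPKM in control and 64.2 in knockdown at D0, 13.2 and 35.4 at D6, and 14.5 and 13.1 at D8. The headers of the D6 and USP10 tables name the same wildtype D6 file for their controls, but the values in these columns differed, and which library the second one came from was not settled.

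The cells expressed skeletal muscle genes in every differentiated column. The summed FPKM of 10 skeletal myoblast and myotube markers was 443 in control and 233 in knockdown at D0, 18675 and 5045 at D6, 15487 and 3706 at D8, and 8932 in control and 5272 with USP10. Of the 10 markers, 7 were at least 2-fold lower in the knockdown at D6, 7 at D8, 4 with USP10 and 1 at D0, and 1, the myoblast regulator Myf5, was 5.25-fold higher at D6 and 4.21-fold higher with USP10. Markers of fibroblasts and mesenchymal cells, 6 in all, summed to 13.2 FPKM in control and 3727 in knockdown at D6, and to 113 and 3566 in the USP10 table, almost all of it Dcn, Ly6a and Cd34. At D8 their sum was 27.2 FPKM in control and 26.5 in knockdown, with Pdgfra 3.95-fold and Dcn 2.09-fold higher and Ly6a 3.23-fold lower, and at D0 it was 36.6 and 47.7. Of the adipocyte, macrophage and endothelial markers, Adipoq and Adgre1 were listed at 0 in every column and Ptprc, Pecam1 and Kdr under 1 FPKM, but others were measured. Pparg ranged from 2.83 to 14.6 FPKM and Cd68 from 0.780 to 4.65. Fabp4 was listed at 0.348 FPKM in control and 4.68 in knockdown at D6 and at 0.535 and 3.84 in the USP10 table. The endothelial cadherin Cdh5 was listed at 13.5 and 11.2 FPKM at D0, 0.0241 and 6.83 at D6, and 0.278 and 6.81 in the USP10 table. The part of this mixture in the results below was not tested, and in bulk RNA fewer cells of a type and less RNA per cell cannot be told apart.

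The 250 bases upstream of the annotated start are given for Pgam2, Eno3, Pygm and Gys1, the muscle isozymes with 1 RefSeq promoter that were at least 2-fold lower in both D6 and D8 knockdown, so that the letters before these genes can be read beside their values, and for the counterparts of 2 of them, Pgam1 and Pygb. They were taken from RefSeq (GRCm38.p6), read in the direction of transcription. Capitals mark E-boxes, the CANNTG letters bound by myogenic basic helix-loop-helix factors such as Myod1 and Myog, and matches to the MEF2 consensus, the AT-rich site of another family of muscle regulators. Pgam2 lies on the minus strand, at chr11:5803797-5804046, Eno3 on the plus strand at chr11:70656926-70657175, Pygm on the plus strand at chr19:6384158-6384407, Gys1 on the plus strand at chr7:45434589-45434838, Pgam1 on the plus strand at chr19:41911621-41911870 and Pygb on the plus strand at chr2:150786546-150786795.
Pgam2: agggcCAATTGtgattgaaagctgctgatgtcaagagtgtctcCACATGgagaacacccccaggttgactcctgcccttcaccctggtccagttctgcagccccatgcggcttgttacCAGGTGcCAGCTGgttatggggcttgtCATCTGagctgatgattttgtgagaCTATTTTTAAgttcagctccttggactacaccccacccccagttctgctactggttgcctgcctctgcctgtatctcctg
Eno3: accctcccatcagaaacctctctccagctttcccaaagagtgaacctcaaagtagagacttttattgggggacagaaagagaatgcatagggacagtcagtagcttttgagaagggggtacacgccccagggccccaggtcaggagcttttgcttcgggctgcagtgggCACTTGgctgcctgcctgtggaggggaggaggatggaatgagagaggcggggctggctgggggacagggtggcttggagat
Pygm: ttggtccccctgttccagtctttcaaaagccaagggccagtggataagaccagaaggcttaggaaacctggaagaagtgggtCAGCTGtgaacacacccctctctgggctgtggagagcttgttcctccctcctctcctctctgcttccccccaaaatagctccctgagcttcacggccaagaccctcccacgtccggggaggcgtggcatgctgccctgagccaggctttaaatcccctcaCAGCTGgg
Gys1: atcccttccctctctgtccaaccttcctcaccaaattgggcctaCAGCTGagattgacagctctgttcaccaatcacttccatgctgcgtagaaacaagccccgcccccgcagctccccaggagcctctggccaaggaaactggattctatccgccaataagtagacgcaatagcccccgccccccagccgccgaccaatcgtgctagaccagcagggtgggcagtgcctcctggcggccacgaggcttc
Pgam1: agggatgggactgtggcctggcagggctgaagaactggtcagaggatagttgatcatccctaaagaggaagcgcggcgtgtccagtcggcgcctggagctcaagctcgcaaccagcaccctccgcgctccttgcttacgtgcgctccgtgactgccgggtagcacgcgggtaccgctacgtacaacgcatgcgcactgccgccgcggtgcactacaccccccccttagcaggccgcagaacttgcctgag
Pygb: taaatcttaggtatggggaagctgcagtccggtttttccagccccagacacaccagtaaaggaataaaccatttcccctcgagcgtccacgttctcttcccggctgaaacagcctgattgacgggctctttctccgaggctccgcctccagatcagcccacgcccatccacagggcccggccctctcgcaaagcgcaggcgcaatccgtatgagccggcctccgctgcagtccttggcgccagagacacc
The Pgam2 stretch holds 5 E-boxes and 1 MEF2 match, the Eno3 stretch 1 E-box, the Pygm stretch 2 E-boxes, both of them CAGCTG, and the Gys1 stretch 1, also CAGCTG, while the Pgam1 and Pygb stretches hold none. Hk2 and Phkb, which were also lower at D6, had no CANNTG upstream either. The counterparts of Eno3 are not printed. Of these, Eno1 holds 2 E-boxes in 1 of its promoters and 0 in the others, and Eno2 holds 1. RefSeq gave promoters for 33 of the 34 genes, 45 in all. CAGCTG, which is its own reverse complement and is counted among the CANNTG matches too, was found upstream of 5 of 11 muscle isozyme genes and 0 of 11 counterpart genes, against 13.0% of 32851 promoters in the mouse table. CANNTG in any form was present upstream of 10 of 11 muscle isozyme genes and 4 of 11 counterparts, against 66.2% of all promoters, and a gene was counted when any of its promoters held a match. Over the 45 promoters of the set, CANNTG was in 64.4% and CAGCTG in 17.8%. The MEF2 consensus was in 2.92% of all promoters and, within the set, only upstream of Pgam2. The letters ACGTG, the core of the hypoxia-inducible factor site, searched on both strands, were in 37.8% of the 45 promoters, including those of Ldha, Pgk1 and Pgam1, against 16.6% of all promoters. Neither TATAAA, searched on the coding strand and present in 7.59% of all promoters, nor the serum response factor consensus, present in 1.47%, was found in the 45. A match is a description of the letters and not of binding.

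The control columns gave the reference pattern. At D6 most muscle isozymes stood higher, and most counterparts lower, than at D0. Between these columns, 31 genes reached 1 FPKM, of which 12 stood 2-fold or more higher at D6 and 11 stood 2-fold or more lower, against 21.5% and 23.2% of all 11653 genes. The split followed the isozyme class. Of 11 muscle isozymes 8 were higher and 1 lower, and of 9 counterparts 7 were lower and 1 higher. The muscle form that was lower was Ldha, and the counterpart that was higher was Eno2. In the D8 control, 8 of 31 genes were at least 2-fold higher and 7 lower than in the D0 control, against 20.0% and 15.7% of all genes, with 5 of 11 muscle isozymes higher and 2 lower, and 3 of 9 counterparts lower and 1 higher. These are levels from separately normalized tables with 1 library each.

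**Figure D1:**
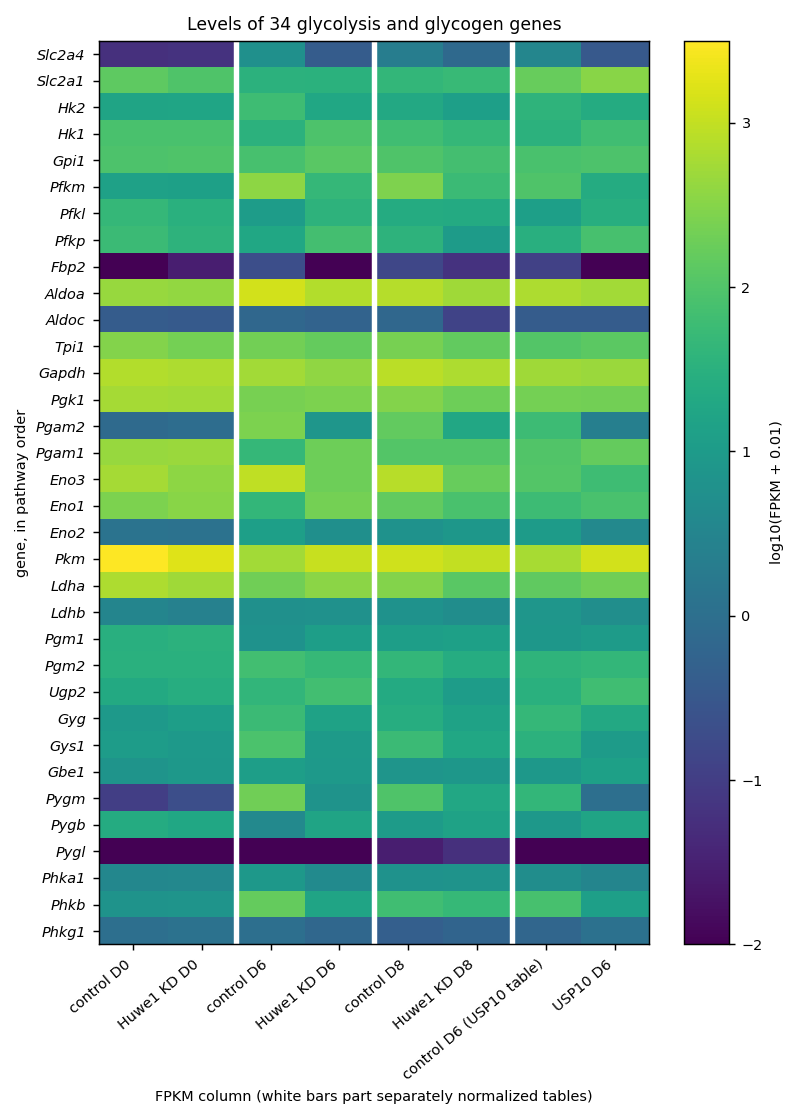
Levels of the 34 genes in the 8 FPKM columns, coloured by log10 of FPKM plus 0.01, with genes in pathway order down the vertical axis and white bars between the separately normalized tables. Pgam2 and Pygm are dark at D0, bright in the D6 and D8 controls and darker again in the D6 knockdown and USP10 columns, whereas Pkm is bright in all 8 columns.

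Within each table, a gene was counted when the log2 ratio of treated to control, with 0.01 FPKM added to both, was beyond 1 in either direction, and genes under 1 FPKM in both columns were left out. At D0, 28 of the 34 genes passed this minimum and 0 were at least 2-fold lower or higher, against 1.69% and 1.90% of all 10874 genes. The members' log2 ratios lay between -0.81 and 0.40 with a median of -0.06, and the median of all genes was 0.00. The widest ratio at D0 was that of Pkm, listed at 3053 FPKM in control and 1736 in knockdown.

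At D6 the picture was divided. Of 31 genes, 11 were at least 2-fold lower in the knockdown (Hk2, Pfkm, Pgam2, Eno3, Eno2, Pygm, Slc2a4, Phka1, Gys1, Phkb and Gyg) and 7 at least 2-fold higher (Hk1, Pfkl, Pfkp, Pgam1, Eno1, Pygb and Pkm), against 13.4% and 17.6% of all 11695 genes. The members' median was -0.41 and that of all genes -0.01. Among muscle isozymes 8 of 11 were lower and 0 higher, with a median log2 ratio of -2.25. Among counterparts 6 of 9 were higher and 1, Eno2, was lower, with a median of 1.72.

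At D8 the knockdown column was lower for most of the genes. Of 30, 9 were at least 2-fold lower (Pfkm, Pfkp, Pgam2, Eno3, Ldha, Pygm, Slc2a4, Gys1 and Ugp2) and 0 higher, against 10.0% and 7.89% of all 11755 genes, and 23 had a log2 ratio below 0. Muscle isozymes accounted for 7 of the 9, with a median over 10 of -1.51. The 9 counterparts had a median of -0.05, and 1 of them, Pfkp, was among the lower genes. The medians were -0.62 over the 30 genes and 0.00 over all genes.

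With USP10 overexpression, 8 of 31 genes were at least 2-fold lower (Pfkm, Pgam2, Eno2, Pygm, Slc2a4, Gys1, Phkb and Gyg) and 4 higher (Pfkl, Pfkp, Pkm and Ugp2), against 10.0% and 9.70% of all 11482 genes. The median was 0.14 over the members and 0.05 over all genes. Muscle isozymes were lower in 5 of 11 with a median of -0.76, while counterparts had a median of 0.91, with 2 of 9 higher and 1 lower. Slc2a1, at a log2 ratio of 1.00, fell just inside the 2-fold limit and was not counted, with Hk1 at 0.95 the next below it, and Ugp2 at 1.05 lay just outside it.

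**Figure D2:**
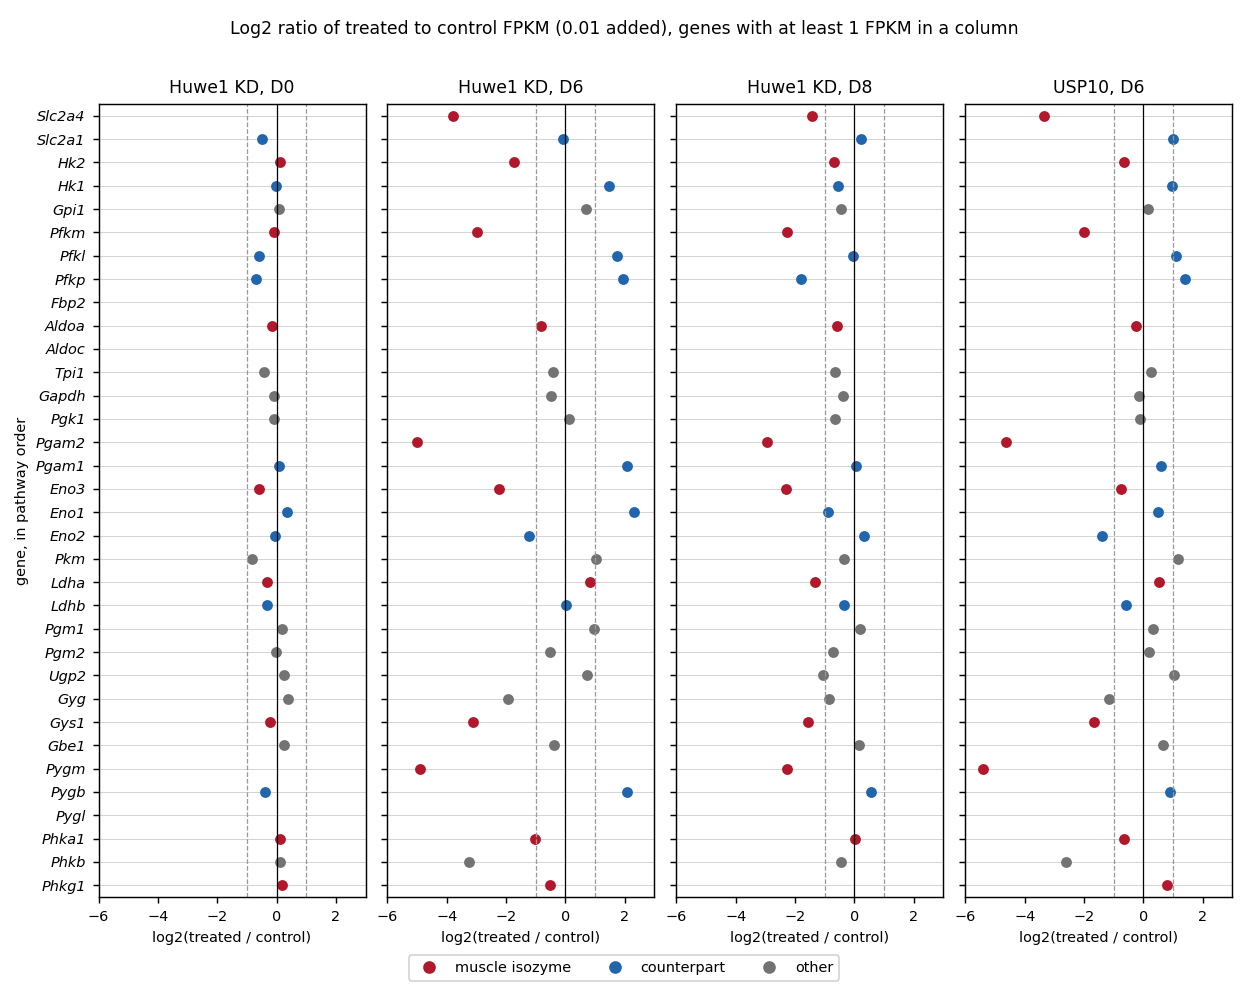
Log2 ratio of treated to control FPKM for each gene in the 4 tables, with muscle isozymes in red, counterparts in blue and other genes in grey, and dashed lines at 2-fold. Red points lie mostly to the left and blue points mostly to the right at D6 and with USP10, Ldha being on the right in both, the points at D0 stay within the dashed lines, and at D8 no gene is past the right-hand line.

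The entry of glucose into the cell showed the muscle transporter at low levels throughout. Slc2a4 was listed at 0.0479 FPKM in control and 0.0552 in knockdown at D0, 5.62 and 0.395 at D6, 2.09 and 0.761 at D8, and 3.39 and 0.327 in the control and USP10 columns. It was highest in the D6 control and lower than its control in all 3 differentiated tables, 13.9-fold at D6, 2.73-fold at D8 and 10.1-fold with USP10. The D0 control value is worth about 3.34 fragments. Slc2a1 was listed at 138 and 98.0 FPKM at D0, 34.5 and 32.8 at D6, 43.9 and 50.6 at D8, and 164 and 329 in the USP10 table. Its USP10 column was the highest of all 8, the control of the same table was second, and the columns of the D6 and D8 knockdown tables were lower than both D0 columns. Slc2a4 made up 14.0% of the FPKM of these 2 transporters in the D6 control and 1.19% in the D6 knockdown, and 4.55% or less in the other columns.

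Hexokinase traps glucose as glucose 6-phosphate. Hk2, the form of insulin-responsive tissues, was listed at 16.0 FPKM in control and 17.4 in knockdown at D0, 61.1 and 18.5 at D6, 20.6 and 12.8 at D8, and 38.2 and 24.2 in the USP10 table. Hk1, the form of most tissues, was listed at 82.9 and 81.8, 34.3 and 94.0, 65.7 and 45.0, and 33.9 and 65.6 FPKM in the same order. Hk2 exceeded Hk1 only in the 2 columns of D6 controls, where it held 64.0% and 53.0% of their summed FPKM. Its share was 16.4% in the D6 knockdown and 27.0% with USP10, and between 16.2% and 23.9% in the 4 columns of D0 and D8. Their sum was 95.3 FPKM in control and 113 in knockdown at D6, 86.3 and 57.8 at D8, and 72.1 and 89.9 in the USP10 table, higher than control in the first and last and 1.49-fold lower at D8. Gpi1, which turns glucose 6-phosphate into fructose 6-phosphate and has no isozyme in the set, ranged from 71.0 to 126 FPKM over the 8 columns and was within 2-fold in all 4 tables.

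Phosphofructokinase commits sugar to glycolysis. Its muscle form Pfkm was listed at 13.9 FPKM in control and 13.1 in knockdown at D0, 362 and 46.0 at D6, 275 and 56.5 at D8, and 95.7 and 23.7 in the USP10 table. All 3 differentiated controls lay above every treated column, and the ratios corresponded to 7.87-fold, 4.86-fold and 4.03-fold lower levels. The liver form Pfkl was listed at 10.7 FPKM in control and 35.4 in knockdown at D6, 24.4 and 23.5 at D8, and 12.7 and 27.4 with USP10. Pfkp, the platelet form, was listed at 57.5 and 35.5 FPKM at D0, 18.9 and 72.5 at D6, 36.3 and 10.4 at D8, and 29.6 and 78.0 with USP10. Pfkp therefore moved in opposite directions at D6, 3.83-fold higher, and at D8, 3.48-fold lower. Pfkm held 92.4% of the family's FPKM in the D6 control and 29.9% in the knockdown, 81.9% and 62.5% at D8, and 69.3% and 18.4% in the USP10 table. The family's sum was 392 FPKM in control and 154 in knockdown at D6, 335 and 90.5 at D8, but 138 and 129 with USP10. The listed loci of Pfkm, chr15:98038744-98132447, and Pfkp, chr13:6548157-6648724, reach 53845 and 31717 bases beyond the RefSeq genes, and 10.7% of the exonic bases of Pfkm and 5.58% of those of Pfkp overlap other GENCODE genes, so their values are less certain.

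Fbp2, the muscle fructose bisphosphatase that runs this step backwards, was listed at 0.195 FPKM or less in every column and at 0 in 3 of them, and it was not counted in any table. Aldolase then cleaves the sugar. Aldoa, the muscle form, was abundant in all columns, with 452 FPKM in control and 409 in knockdown at D0, 1306 and 735 at D6, 780.3 and 519 at D8, and 659 and 548 in the USP10 table. It was highest in the D6 control, 1.78-fold above the knockdown, and made up over 99% of aldolase FPKM everywhere. The brain form Aldoc stayed at 0.691 FPKM or less and was never counted.

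The next 3 steps are each catalysed by the product of a single main gene. Tpi1, which interconverts the triose phosphates, ranged from 109 to 295 FPKM, Gapdh, the dehydrogenase that follows, from 389 to 845 FPKM, and Pgk1, the first kinase to yield ATP, from 194 to 569 FPKM. The ratios of these 3 genes were within 2-fold in all 4 tables. Pgk1 shares 53.9% and Gapdh 25.1% of their 50-base words with transcripts of other genes, so that part of their fragments cannot be placed with certainty. The gene sharing most words was Pgk1-rs7 for Pgk1 and Gm7336 for Gapdh.

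Phosphoglycerate mutase showed an exchange of isozymes. Pgam2, the muscle subunit encoded at chr11:5801637-5803796, was listed at 0.775 FPKM in control and 0.916 in knockdown at D0, 254 and 7.85 at D6, 155 and 20.2 at D8, and 59.6 and 2.39 in the USP10 table. Every differentiated control was above every treated column, with ratios of 32.3-fold lower at D6, 7.66-fold at D8 and 24.9-fold with USP10. The D0 control value of Pgam2 is worth about 14.2 fragments. Pgam1, the form of most tissues, was listed at 437 and 464 FPKM at D0, 46.3 and 194 at D6, 106 and 109 at D8, and 104 and 157 in the USP10 table. Its lowest value was the D6 control, and the knockdown there was 4.18-fold higher, while at D8 the 2 columns were within 1.03-fold. Pgam2 thus held 84.6% of the pair's FPKM in the D6 control and 3.90% in the knockdown, 59.4% and 15.6% at D8, and 36.4% and 1.50% in the USP10 table. Their sum was listed at 300.3 FPKM in control and 201 in knockdown at D6, 261 and 129 at D8, and 164 and 159 in the USP10 table, so that it was 2.02-fold lower at D8 and within 1.49-fold in the others. Pgam1 shares 36.2% of its 50-base words with 4 other genes, chiefly its processed copy Pgam1-ps2, whereas Pgam2 shares none.

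Enolase, which forms phosphoenolpyruvate, differed from the mutase in that its muscle form was already abundant in myoblasts. Eno3 was listed at 561 FPKM in control and 373 in knockdown at D0, 942 and 198 at D6, 817 and 163 at D8, and 104 and 61.7 in the USP10 table. The D6 and D8 controls were highest, 4.76-fold and 4.99-fold above their knockdowns, and both columns of the USP10 table were lowest and within 2-fold of each other. Eno1, the form of most tissues, was listed at 256 and 326 FPKM at D0, 44.5 and 223 at D6, 150.3 and 81.7 at D8, and 60.1 and 83.8 with USP10. It was 5.01-fold higher in the D6 knockdown and 1.84-fold lower in the D8 knockdown. Eno1 shares 26.0% of its 50-base words with other genes, and the tables list a second gene, Gm5506, at its locus, with 5.33 FPKM in the D6 control and 15.4 in the knockdown. Eno2, the neuronal form, was listed at 12.8 FPKM in control and 5.42 in knockdown at D6, 6.41 and 8.01 at D8, and 10.4 and 3.94 with USP10, so that at D6 and with USP10 it went with the muscle form and not with Eno1. The Eno3 share of enolase FPKM was 94.3% in the D6 control and 46.4% in the knockdown, 83.9% and 64.6% at D8, 59.7% and 41.3% in the USP10 table, and 68.6% and 53.2% at D0.

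Pyruvate kinase, encoded by Pkm, was the most abundant member at D0. It was listed at 550.3 FPKM in control and 1115 in knockdown at D6, 1242 and 974 at D8, and 592 and 1335 in the USP10 table. Against its control Pkm was 2.03-fold higher in the D6 knockdown and 2.26-fold higher with USP10, and within 2-fold at D0 and D8. Values per gene do not separate its 2 splice forms, M1 of muscle and M2 of dividing cells. Pkm shares 25.8% of its 50-base words with other genes.

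Lactate dehydrogenase did not follow the other families. Ldha, the M subunit that favours lactate formation, was listed at 661 FPKM in control and 526 in knockdown at D0, 199.9 and 354 at D6, 305 and 121 at D8, and 141 and 203 in the USP10 table. It was highest at D0, 1.77-fold higher in the D6 knockdown than in its control, and 2.52-fold lower in the D8 knockdown. Ldhb, the H subunit of heart, ranged from 2.59 to 7.86 FPKM and was within 2-fold in every table. Ldha held at least 94.7% of the pair's FPKM in all 8 columns. Ldhb shares 21.0% of its 50-base words with 1 other gene, Gm5514, and Ldha shares 9.26% with other genes.

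On the way into glycogen, Gys1, the muscle glycogen synthase at chr7:45434839-45456617, was listed at 11.1 FPKM in control and 9.50 in knockdown at D0, 87.0 and 10.1 at D6, 56.0 and 18.8 at D8, and 33.6 and 10.6 in the USP10 table. Every differentiated control was above all treated columns, with 8.65-fold, 2.97-fold and 3.17-fold lower values, and the D6 knockdown and USP10 columns lay close to the D0 level. The liver synthase Gys2 was listed at 0.0413 FPKM or less. Gyg, the glycogenin that primes the chain, was listed at 55.8 FPKM in control and 14.4 in knockdown at D6, 26.3 and 14.6 at D8, and 45.4 and 20.4 with USP10, and was at least 2-fold lower at D6 and with USP10.

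Ugp2, which makes UDP-glucose, the donor for glycogen, was listed at 21.9 FPKM in control and 26.4 in knockdown at D0, 41.2 and 68.9 at D6, 22.6 and 10.9 at D8, and 31.3 and 64.6 with USP10. It was higher than control at D6 and with USP10 but 2.08-fold lower at D8, unlike Gys1 and Gyg, which were lower than control in all 3. Gbe1, the branching enzyme, ranged only from 7.12 to 13.5 FPKM. Of the phosphoglucomutases, which link glucose 1-phosphate with glucose 6-phosphate, the gene listed as Pgm1 at chr5:64092950-64128158 ranged from 6.24 to 33.8 FPKM and that listed as Pgm2 at chr4:99929451-99987294 from 25.8 to 69.0 FPKM, both within 2-fold in every table. RefSeq names these 2 genes the other way round, so the listed Pgm2 is the gene that RefSeq calls Pgm1. The listed Pgm2 was higher in the D6 control than in the D0 control, 69.0 against 31.7 FPKM, and the listed Pgm1 was lower, 6.24 against 29.9 FPKM.

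Glycogen breakdown held the gene with the widest ratio of the set, Pygm in the USP10 table. Pygm, the muscle glycogen phosphorylase at chr19:6384429-6398459, was listed at 0.0951 FPKM in control and 0.201 in knockdown at D0, 201 and 6.66 at D6, 97.3 and 20.0 at D8, and 44.0 and 1.03 in the USP10 table. It was 30.1-fold lower at D6, 4.87-fold at D8 and 42.1-fold with USP10, with every differentiated control above every treated column, while the D0 control value is worth about 5.96 fragments. Pygb, the brain form, was listed at 24.3 and 18.5 FPKM at D0, 3.82 and 16.2 at D6, 10.2 and 14.8 at D8, and 8.52 and 16.0 with USP10. It was lowest in the D6 control and 4.23-fold higher in the knockdown there. The liver form Pygl stayed at 0.0477 FPKM or less and was listed at 0 in 6 of 8 columns. Pygm held 98.1% of phosphorylase FPKM in the D6 control and 29.2% in the knockdown, 90.5% and 57.3% at D8, and 83.8% and 6.07% in the USP10 table. The phosphorylases as a sum were listed at 205 FPKM in control and 22.8 in knockdown at D6, 108 and 34.9 at D8, and 52.5 and 17.0 in the USP10 table.

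Phosphorylase kinase switches phosphorylase on. Phkb, its beta subunit, for which the genome has a single gene, was listed at 6.59 FPKM in control and 7.11 in knockdown at D0, 155 and 16.4 at D6, 66.1 and 48.0 at D8, and 77.5 and 12.8 in the USP10 table. It was 9.44-fold lower at D6 and 6.05-fold lower with USP10, but only 1.38-fold lower at D8. Phka1, the muscle alpha subunit, was listed at 8.54 FPKM in control and 4.17 in knockdown at D6, 6.47 and 6.54 at D8, and 5.04 and 3.18 with USP10, and only the D6 ratio passed 2-fold. Its counterpart Phka2 was listed at 11.8 and 21.4 FPKM at D6. Phkg1, the muscle gamma subunit, ranged from 0.447 to 1.17 FPKM and was below Phkg2 in every column, with 9.33% to 22.2% of their sum over the 8 columns. The subunits of this 1 enzyme therefore did not move alike. The listed locus of Phkg1 overlaps its neighbour Sumf2, and 11.1% of its 50-base words are shared with other genes.

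**Figure D3:**
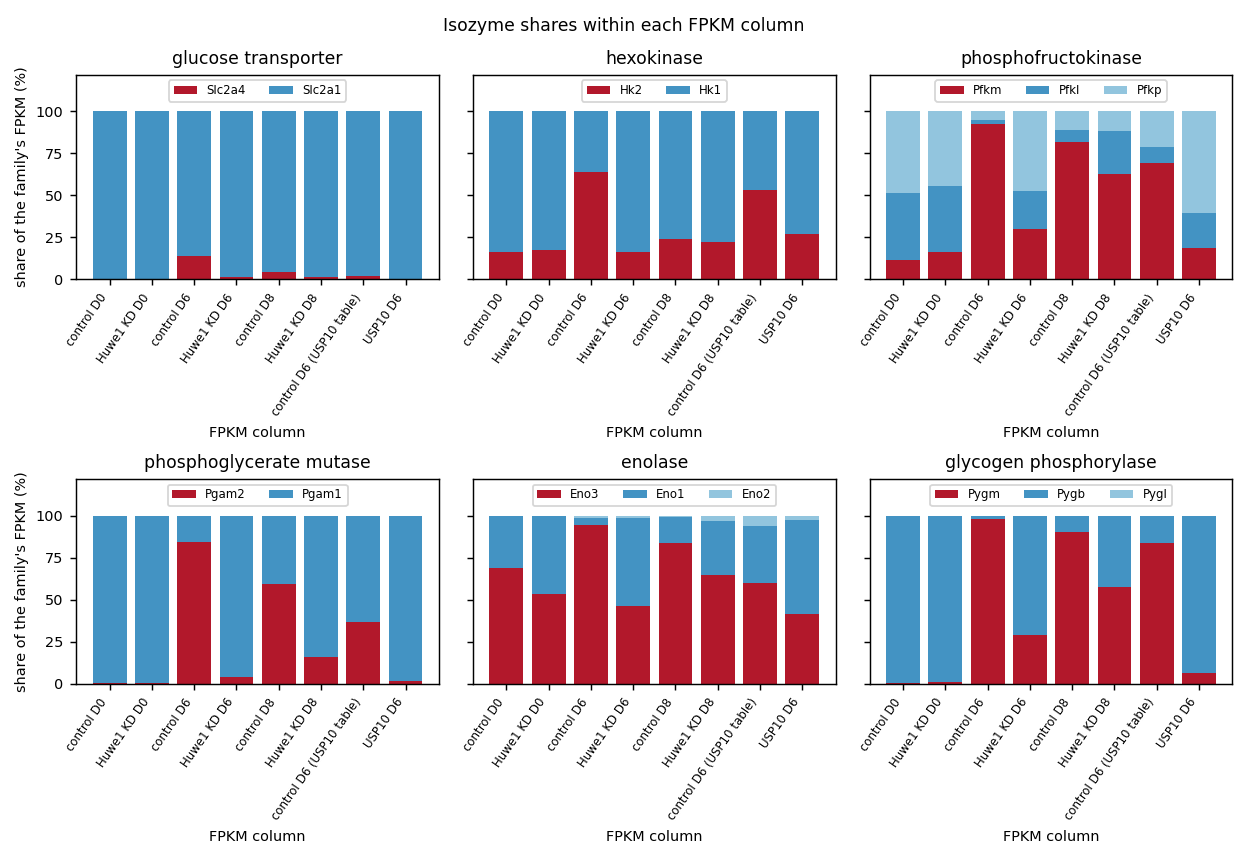
Share of each isozyme, in percent of its family's summed FPKM, in the 8 columns for 6 families, with the muscle isozyme in red at the base of each bar and counterparts in blue. In these 6 families the red part is taller in each control than in its treated column at D6, at D8 and with USP10. Pgam2 goes from 84.6% to 3.90% at D6. Families not drawn did not all do so. The muscle share was higher in the treated column for Ldha at D6 and with USP10, for Phka1 at D8 and for Phkg1 with USP10.

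The ratio of muscle isozyme to counterpart within a column hardly depends on how that column was scaled, so its change was set side by side for the 4 tables. Pfkm and Eno3 each enter 2 pairs, so the pairs counted below are not independent of each other. At D6, 10 of 11 pairs with both genes measured had a lower ratio in the knockdown, 9 of them at least 2-fold, and the median difference of log2 ratios was -3.73. Pgam2 against Pgam1 had the lowest difference, -7.08, followed by Pygm against Pygb at -6.99, and the exception was Ldha against Ldhb at 0.80. At D8, 9 of 10 pairs were lower, 6 at least 2-fold, with a median of -1.55 and a range from -2.98 to 0.28. With USP10, 8 of 11 pairs were at least 2-fold lower and 1, Ldha against Ldhb at 1.11, at least 2-fold higher, with a median of -1.61. At D0 all 8 pairs were within 2-fold, with a median of 0.20 and the lowest value, -0.94, for Eno3 against Eno1. For hexokinase the difference was -3.18 at D6 and -1.61 with USP10 but -0.14 at D8, since at D8 Hk1 was lower in the knockdown along with Hk2.

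**Figure D4:**
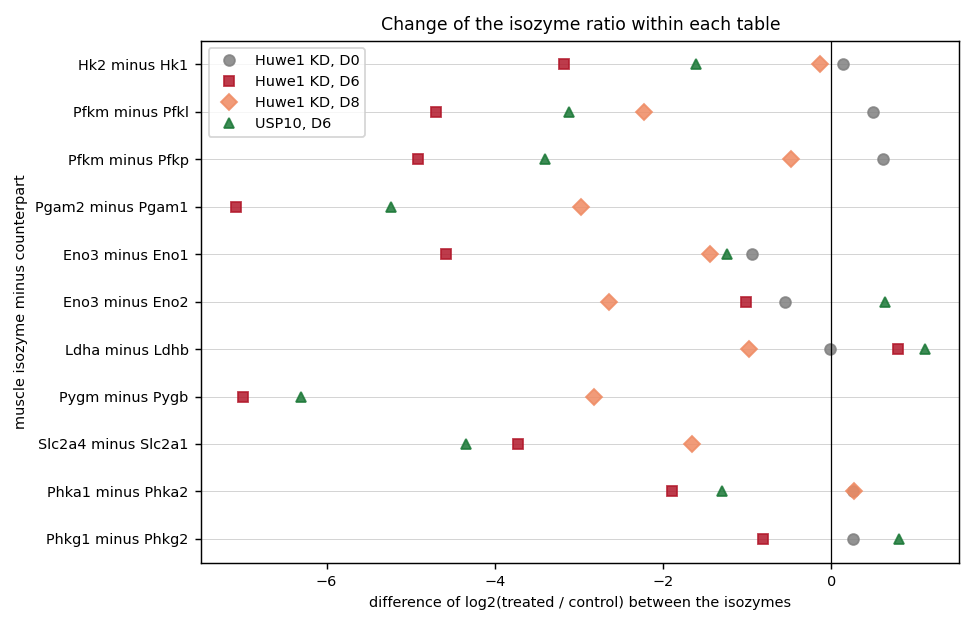
Difference between the log2 ratios of a muscle isozyme and its counterpart in each table, with a row for each of 11 pairs and a symbol for each table. Negative values, where the muscle isozyme lost ground to its counterpart, reach -7.08 at D6 and -2.98 at D8, and D0 points lie between -0.94 and 0.61.

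How far controls differ from each other could be seen only at D6, where 2 control columns exist. Of 31 genes, 6 were at least 2-fold lower in the control of the USP10 table than in that of the D6 table and 3 higher, against 8.66% and 11.2% of all 11459 genes. Muscle isozymes made up 5 of the 6. Eno3 was listed at 942 and 104 FPKM in the 2 controls, Pygm at 201 and 44.0, Pgam2 at 254 and 59.6 and Pfkm at 362 and 95.7. Muscle forms were thus lower in the control of the USP10 table, as most were in the treated D6 columns. Pgam1, Pygb and Slc2a1 were higher in that control. Pgam1 and Pygb were also higher in the D6 knockdown, but Slc2a1 was not, at 34.5 FPKM in control and 32.8 in knockdown. Hk1, Pfkl, Pfkp and Eno1, at least 2-fold higher in the D6 knockdown, were within 2-fold between the controls. Over all 31 genes, 23 differed more between knockdown and control at D6 than between the 2 controls, and 21 differed more between USP10 and its control. The share of all genes that did so was not computed. Each comparison also shares a control column with the difference between controls, so these counts are descriptions only. Eno3 was 4.76-fold lower in the D6 knockdown but 9.03-fold apart between the controls. Hk2, Aldoa, Pgam1, Pygb, Phka1 and Slc2a1 were among the 10 genes whose USP10 ratio was no wider than the difference between controls. The fibroblast and mesenchymal markers summed to 13.2 FPKM in the D6 control and 113 in the control of the USP10 table, and the skeletal markers to 18675 and 8932.

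Around the core pathway, 50 further genes of glucose and glycogen metabolism were examined. At D6, 10 of 31 measured were at least 2-fold lower in the knockdown and 2 higher, at D8 4 of 31 were lower and 5 higher, with USP10 4 of 30 were lower and 1 higher, and at D0 0 of 25 passed in either direction. As shares, 32.3% lower and 6.45% higher at D6 stood beside 13.4% and 17.6% of all genes, 12.9% and 16.1% at D8 beside 10.0% and 7.89%, and 13.3% and 3.33% with USP10 beside 10.0% and 9.70%. Their medians were -0.41, -0.19, -0.16 and -0.05. Pgm5, a phosphoglucomutase relative of the muscle cell's adhesion sites that lacks the enzyme activity, was listed at 0.0161 FPKM in control and 0.00770 in knockdown at D0, 25.0 and 3.61 at D6, 23.4 and 1.65 at D8, and 7.09 and 1.24 with USP10. It was low at D0 and above its treated column in each differentiated control. Chosen after its values were seen, the lactate exporter Slc16a3 was listed at 3.10 FPKM in control and 0.182 in knockdown at D6, 10.4 and 4.64 at D8, and 3.59 and 0.347 with USP10. Outside D6, the other genes at least 2-fold lower were Gpd1 and Ppp1r3a at D8 and Epm2a and G6pc3 with USP10. Those higher were Gpd2 and Pdk3 at D6, Gapdhs, Pdk4, Pfkfb2, Pfkfb3 and Stbd1 at D8, and Tigar with USP10. These genes are named for passing 2-fold alone, and only Pgm5 met the naming rule given below. In the tables concerned, Gpd1, Ppp1r3a, Epm2a and Gapdhs were under 5 FPKM in both columns.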

How the data were processed

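Poly(A) RNA libraries from C2C12 cells were sequenced by the authors on a HiSeq instrument, mapped with Tophat and compared with Cuffdiff. The submitters' processing notes name Bowtie2, Cuffdiff and mm10, without versions, and the annotation is not given in the sources used here. The deposited FPKM values of each gene, which the authors scaled for the length of the transcript and the size of the library, were used as given. The 5 deposited columns of the authors' own comparisons (log2 fold change, test statistic, p-value, q-value and significance) were not used. Log2 ratios of treated to control were computed with 0.01 FPKM added, which understates the change of genes near 0, and genes under 1 FPKM in both columns were left out. A gene was counted at 2-fold. Because both knockdown libraries are pooled, these are values with no test, in place of the replicate comparison the design would allow.

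The 34 members, their isozyme classes and the lists of 50 pathway genes and 28 markers were written from general knowledge, with earlier results of these data known. All members were to be named with values. Further pathway genes needed to be at least 2-fold in 1 direction, with at least 5 FPKM, in at least 2 of the 3 differentiated tables. Only Pgm5 met this rule, and the other pathway genes named here are counterparts or were named outside it. Listed loci were matched to RefSeq (GRCm38.p6) and GENCODE M21, Adgre1 and Tigar were found under older symbols, and 50-base words of member transcripts were sought in transcripts of all other genes on both strands. The library was directional, but whether fragments were counted by strand is not given in the sources used here. Depth was read from the lowest FPKM values of genes with 1 transcript of at least 1500 bases, and pooled columns gave no estimate. Fragment numbers cover counting error only and assume the longest transcript. The computations were tested on simulated data. Software was matplotlib 3.10.9, numpy 2.4.6, pandas 2.3.3 and Python 3.11.15. Counts were repeated with 0.1 or 1 FPKM added, with no minimum, with 5 FPKM as the minimum or 1 FPKM required of both columns, with genes whose Cuffdiff status was OK, and after centring on the median gene, and isozyme shares were repeated with all listed paralogs.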

Additional observations from a re-analysis of the deposited data

Results flagged for a closer look

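Between Huwe1 knockdown and control, 5 of the 34 members differed in opposite directions on different days, by at least 1.5-fold each way. The share of all genes that did so was not computed. The difference between days was not tested, since each day has 1 value per condition. Pfkl, 1.49993-fold lower at D0 and 3.29-fold higher at D6, fell just short of this limit. Pfkp had a log2 ratio of -0.70 at D0, 1.94 at D6 and -1.80 at D8. Eno1 had 2.32 at D6 and -0.88 at D8, Ldha 0.82 at D6 and -1.33 at D8, and Ugp2 0.74 at D6 and -1.06 at D8. Pkm had -0.81 at D0 and 1.02 at D6. The D8 cells received other hairpins, later, than the D0 and D6 cells.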

How the results depend on the processing

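The counts of members at least 2-fold lower or higher stayed within 1.5 times of those given under each of the 7 other settings, with 1 exception. Without a minimum, 2 members (Pygm and Fbp2, both under 1 FPKM) were at least 2-fold higher at D0, where 7.30% of all genes were. With 1 FPKM added, Phka1 at D6 (-0.88), Slc2a4 at D8 (-0.81) and Ugp2 at D8 (-0.99) came within 2-fold and Ldha against Ldhb at D8 (-1.03) passed it. Centring on the median gene brought Ugp2 with USP10 to 0.998, just inside. No isozyme share moved by more than 1 percentage point with all listed paralogs in the sum, and no called log2 ratio changed sign. No paired analysis was possible because both knockdown libraries are pooled in 1 column, and for the same reason no library could be left out. Depth limits Pgam2, Pygm and Slc2a4 at D0 and Fbp2, Pygl and Aldoc throughout, and Phkg1 in the D8 and USP10 table controls (about 19.1 and 12.0 fragments).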

Other observations

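Stbd1, a glycogen-binding protein, was among the more abundant genes of the wider pathway and was listed at 285 FPKM in control and 128 in knockdown at D6, 108 and 254 at D8, and 253 and 240 in the USP10 table, so that its direction at D8 was opposite to that at D6. Gpd1l, a glycerol 3-phosphate dehydrogenase relative, was listed at 24.2 and 4.51 FPKM at D6, 21.9 and 12.0 at D8, and 21.1 and 31.2 in the USP10 table. Both genes were picked after their values were seen, and the differences were not tested. The 34 members together accounted for between 0.704% and 1.28% of all FPKM in the 8 columns, with the highest share in the D0 control and the lowest in the control of the USP10 table.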
